A study of Mus musculus with 79 samples.

Results

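Aldehydes, quinones and other reactive carbonyls reach the airway in cigarette smoke and also arise when membrane lipids are oxidised. This report describes 9 mouse genes whose enzymes reduce or oxidise such compounds: Nqo1, Aldh3a1, Aldh1a1, Aldh1a7, Adh7, Adh1, Cbr1, Cbr3 and Akr1b8. The genes were chosen by name, with earlier results of these data known. Each was matched to the row of the expression table whose transcript identifier belongs to it. Of the 9 genes, 8 were measured among 31350 rows, and Adh1 was not analysed here. Every matched gene had a single row.

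RNA came from the whole right lung of 79 mice of 5 to 7 weeks on a C57BL/6J background and was hybridised to Affymetrix mouse gene arrays, 1 array per mouse. Mice were wild-type (WT) or littermates carrying a Scnn1b transgene (βENaC mice, written BENaC in the labels). The transgene is driven in the airway epithelium, where it raises sodium absorption, so that the mucus is dehydrated and the airways resemble chronic bronchitis. Mice of each genotype and sex breathed smoke from 6 cigarettes a day or sham air for 1 or 5 days and were killed 4 hours after the last exposure, which gave 16 groups of 4 to 6 mice. There were 20 sham and 20 smoke mice at 1 day, and 20 sham and 19 smoke mice at 5 days.

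Scnn1b itself separated the genotypes, at 8.42 to 9.47 in WT and 11.52 to 11.88 in βENaC mice on the log2 intensity scale of the arrays. For 13 WT mice a second label field named the other genotype, and their Scnn1b was within the WT range. Correlations between arrays ran from 0.965 to 0.995. Markers of club cells, the secretory cells of the small airways, averaged between 11.09 and 13.19 for 4 of 5 genes and 5.45 for Cldn10. Cartilage markers averaged between 2.89 and 3.46, below the median row at 4.51. In 3 mice the values spread most from their group median (SD above 0.3, against a median of 0.183 over all mice). They were a βENaC smoke female at 5 days, a βENaC sham male at 1 day and a WT smoke female at 5 days.

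As background, NQO1 reduces quinones by 2 electrons at once, which avoids the reactive semiquinone. ALDH3A1, ALDH1A1 and ALDH1A7 oxidise aldehydes to acids, and ALDH1A1 also makes retinoic acid. ADH7 oxidises retinol and other long-chain alcohols. CBR1 and CBR3 reduce carbonyls with NADPH, and AKR1B8 is an aldo-keto reductase that reduces aldehydes. Several of these genes are known targets of the transcription factor NRF2, encoded by Nfe2l2, which binds antioxidant response elements after release from KEAP1. Nqo1 and Aldh3a1 are also classical targets of the aryl hydrocarbon receptor, which binds xenobiotic response elements.

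The RefSeq promoter table (build GRCm38.p6) held entries for 7 of the 8 measured genes, and the 250 bases before each annotated start were searched. On both strands, the antioxidant response element core TGACNNNGC was matched in 0 of these 7 genes, against 10.2% of 32851 promoters of the same length. The xenobiotic response element core GCGTG was matched in 2 of the 7 genes, Cbr1 and Akr1b8, against 28.2% of all promoters. The pair of neighbouring carbonyl reductase genes, Cbr1 and Cbr3, is shown because smoke moved them by very different amounts. The first sequence is chr16:93607587-93607836 on the plus strand, with both matches to the xenobiotic core (1 on each strand) in capitals, and the second is chr16:93682969-93683218 on the plus strand, with no match to either core.
Cbr1: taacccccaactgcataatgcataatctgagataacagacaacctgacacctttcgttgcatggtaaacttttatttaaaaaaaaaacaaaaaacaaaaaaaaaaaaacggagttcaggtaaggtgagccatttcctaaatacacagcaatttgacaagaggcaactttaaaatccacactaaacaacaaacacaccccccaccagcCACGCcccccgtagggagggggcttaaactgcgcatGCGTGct
Cbr3: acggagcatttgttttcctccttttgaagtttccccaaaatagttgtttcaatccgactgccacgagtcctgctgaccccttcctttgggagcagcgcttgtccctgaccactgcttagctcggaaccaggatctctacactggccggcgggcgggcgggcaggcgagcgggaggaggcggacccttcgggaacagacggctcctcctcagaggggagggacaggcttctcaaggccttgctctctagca
A match is only a run of letters, and a window without a match says nothing about sites farther away.

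Aldh1a1 and Aldh1a7 are neighbours on chromosome 19 with closely related promoters, which are shown because the transcripts themselves are hard to tell apart by probes. Over the last 100 bases before the start (the second of 2 annotated starts for Aldh1a1), 94 positions were identical. The windows are chr19:20601868-20601967 on the plus strand and chr19:20727557-20727656 on the minus strand. Capitals mark the positions that differ.
Aldh1a1: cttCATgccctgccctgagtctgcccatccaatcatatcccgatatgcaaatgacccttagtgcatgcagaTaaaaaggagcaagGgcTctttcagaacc
Aldh1a7: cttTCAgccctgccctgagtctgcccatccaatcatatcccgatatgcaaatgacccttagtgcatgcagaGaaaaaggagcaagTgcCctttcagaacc
Over the whole 250 bases the identity without gaps was 51.6%. Probes for related transcripts can share signal, and no probe or transcript sequence was compared here. The values of Aldh1a1 and Aldh1a7, and those of Akr1b8 beside its relatives Akr1b7 and Akr1b10, carry that uncertainty.

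Smoke raised 5 of the 8 transcripts at both durations: Nqo1, Aldh3a1, Adh7, Cbr3 and Akr1b8. Differences are smoke minus sham on the log2 scale with their SE, from a linear model (limma) with exposure, genotype and sex, fitted to all rows of one duration. A transcript was called when its Benjamini-Hochberg adjusted p was under 0.05 and its change exceeded 1.3-fold. By this rule 0.488% of all rows were called higher at 1 day and 0.581% at 5 days. The median difference of the 8 transcripts was 1.25 at 1 day and 1.01 at 5 days, beside 0.01 and 0.00 over all rows. Because earlier results were known when the genes were chosen, comparisons with all rows are a description and not a test. In whole-lung RNA, a change in the share of a cell type and a change in RNA per cell cannot be told apart.

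**Figure D1:**
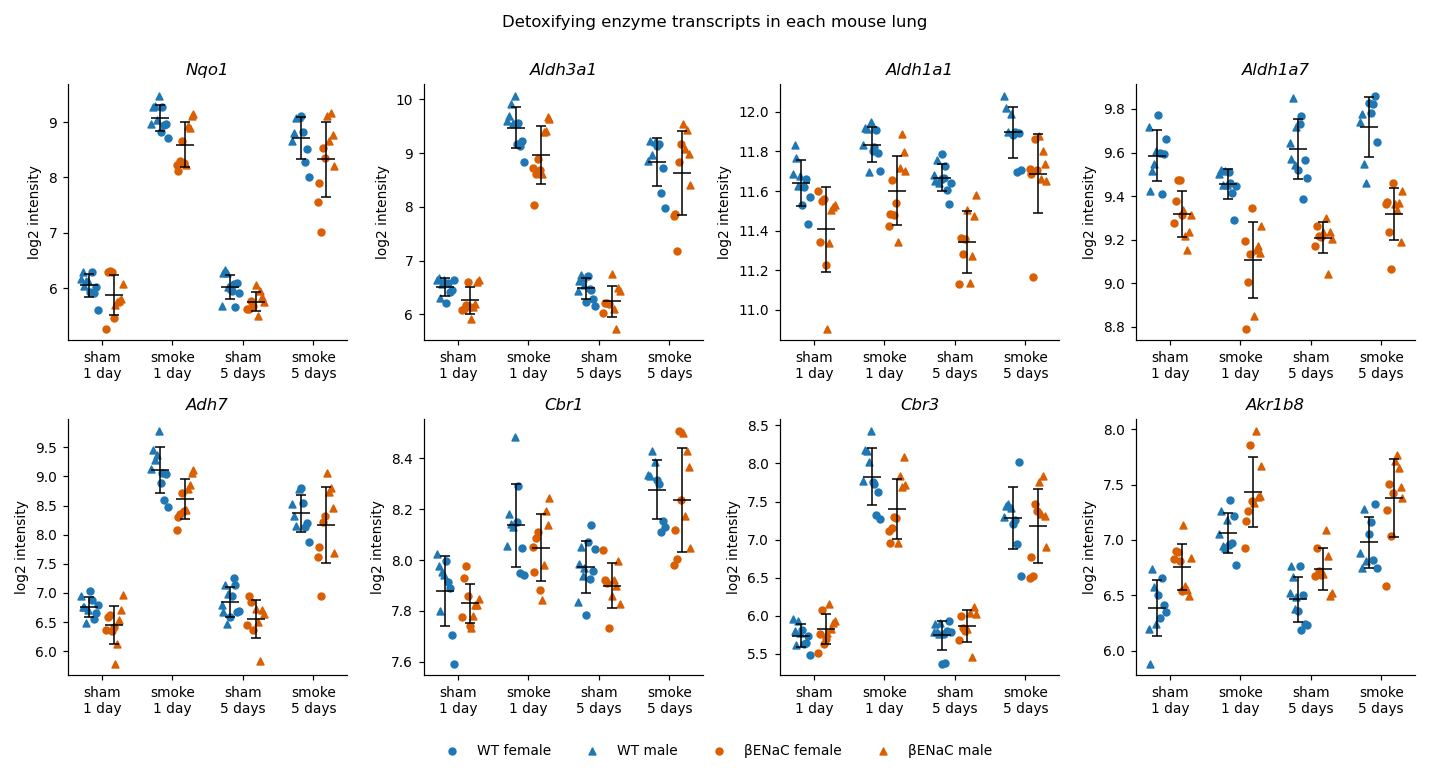
Log2 intensity (vertical axis) of the 8 transcripts in each of the 79 mice, by exposure and duration (horizontal axis), with WT in blue, βENaC in orange, circles for females and triangles for males, and black bars for the mean and SD of each genotype. For Nqo1, Aldh3a1 and Cbr3 every smoke mouse lies above every sham mouse at both durations, while the ranges of Aldh1a1, Aldh1a7, Cbr1 and Akr1b8 overlap.

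Nqo1, the quinone reductase, changed the most of the 8. At 1 day its log2 intensity ran from 5.27 through a median of 6.03 to 6.31 in the 20 sham mice, and from 8.11 through 8.93 to 9.48 in the 20 smoke mice. At 5 days the sham values were 5.50, 5.93 and 6.33 and the smoke values 7.01, 8.65 and 9.17 (lowest, median, highest). No smoke mouse overlapped the sham range at either time. The difference was 2.87 ± 0.09 (7.32-fold, adjusted p = 2.8e-25) at 1 day and 2.64 ± 0.11 (6.25-fold, adjusted p = 1.8e-20) at 5 days by limma. Among all rows it was the fourth largest increase at 1 day and the third largest at 5 days. The other quinone reductase on the array, Nqo2, differed by -0.01 ± 0.06 at both times.

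Aldh3a1, the aldehyde dehydrogenase best known from cornea and stomach, followed closely. Sham lungs held 5.91 to 6.67 (median 6.43) and smoke lungs 8.04 to 10.07 (median 9.31) at 1 day. After 5 days sham lungs held 5.74 to 6.75 (median 6.44) and smoke lungs 7.17 to 9.54 (median 8.96). Again the ranges were separate at both times. The increase was 2.84 ± 0.09 (7.15-fold, adjusted p = 7.1e-25) and 2.39 ± 0.13 (5.23-fold, adjusted p = 2.0e-16) by limma. Its chromosomal neighbour Aldh3a2, a fatty aldehyde dehydrogenase, was not called, at 0.06 ± 0.03 at each time.

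Adh7 and Cbr3 came next. For Adh7, the retinol-oxidising alcohol dehydrogenase, sham lungs ran from 5.79 to 7.04 (median 6.64) and smoke lungs from 8.07 to 9.79 (median 8.87) at 1 day. At 5 days the ranges were 5.83 to 7.26 (median 6.70) and 6.94 to 9.06 (median 8.31). One smoke mouse at 5 days, replicate 3 of the βENaC females, fell within the sham range, and the other 18 were above it. The rise was 2.26 ± 0.09 (4.78-fold, adjusted p = 7.3e-22) at 1 day and 1.57 ± 0.13 (2.96-fold, adjusted p = 1.3e-11) at 5 days by limma. The same mouse had the lowest Nqo1 and Aldh3a1 of the smoke mice at 5 days, 7.01 and 7.17, and was among the 3 whose values spread most. Its summed intensity of 5 club cell markers was 18268, below the 19292 to 25534 of all other mice, and its ciliated cell sum was 623 against 664 to 1095. Its alveolar type 1 sum was the lowest too (5184, others 5232 to 6913). Its endothelial sum was near the low end (5656, others 5619 to 8022). Near the high end were its sums of alveolar macrophage (8383, others 3574 to 9328) and alveolar type 2 markers (24015, others 20051 to 24432). The part of these cell types in its low values was not tested. Without those 3 mice the same number of transcripts, 5, was called at each duration.

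Cbr3, a carbonyl reductase, had sham values of 5.49 to 6.15 (median 5.78) and smoke values of 6.95 to 8.43 (median 7.70) at 1 day. At 5 days they were 5.37 to 6.12 (median 5.80) and 6.50 to 8.01 (median 7.32). The groups were separate at both times, with a rise of 1.83 ± 0.08 (3.56-fold, adjusted p = 3.3e-20) and 1.44 ± 0.10 (2.71-fold, adjusted p = 2.5e-13) by limma. Its neighbour Cbr1, the broadly expressed carbonyl reductase, moved much less. Cbr1 ran from 7.59 to 8.02 (median 7.85) in sham and 7.84 to 8.48 (median 8.10) in smoke mice at 1 day, and from 7.73 to 8.14 (median 7.93) and 7.98 to 8.51 (median 8.30) at 5 days. Most smoke mice, 14 of 20 and 13 of 19, lay above all sham mice, and the rest overlapped. The differences of 0.24 ± 0.04 (adjusted p = 8.9e-05) and 0.32 ± 0.04 (adjusted p = 1.4e-06) passed the adjusted p by limma but were under 1.3-fold.

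Akr1b8, the aldo-keto reductase, rose moderately. Sham lungs held 5.89 to 7.14 (median 6.56) and smoke lungs 6.78 to 7.99 (median 7.24) at 1 day, and 6.19 to 7.09 (median 6.59) and 6.59 to 7.77 (median 7.27) at 5 days. Smoke mice within the sham range numbered 7 of 20 and 8 of 19. The increase was 0.68 ± 0.08 (adjusted p = 2.5e-08) and 0.58 ± 0.08 (adjusted p = 1.3e-06) by limma. Its relatives Akr1b10 and Akr1b7 were not called, with differences from -0.12 to 0.10.

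The pair of Aldh1a genes on chromosome 19 changed little. Aldh1a1 had sham values of 10.91 to 11.83 and smoke values of 11.34 to 11.95 at 1 day, and 11.13 to 11.79 and 11.17 to 12.08 at 5 days, so most mice overlapped. Its differences, 0.19 ± 0.05 (adjusted p = 0.0056) and 0.29 ± 0.04 (adjusted p = 2.1e-05), passed the adjusted p by limma and not the fold threshold. Aldh1a7 was lower with smoke at 1 day, at 8.79 to 9.52 against 9.15 to 9.77 in sham mice, and spanned 9.07 to 9.86 against 9.05 to 9.85 at 5 days. Its differences were -0.17 ± 0.04 (adjusted p = 0.0033) and 0.11 ± 0.04 (adjusted p = 0.11). Counting the adjusted p alone, 7 of the 8 transcripts were higher and 1 lower at 1 day, and 7 higher and 0 lower at 5 days. For all rows the shares higher were 5.03% and 3.17%, and 4.43% were lower at 1 day.

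**Figure D2:**
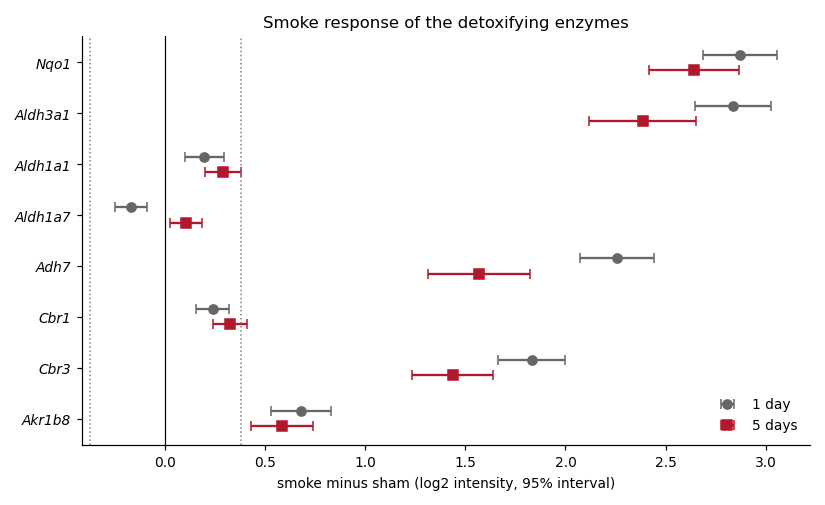
Smoke minus sham difference in log2 intensity (horizontal axis) for each transcript at 1 day (grey circles) and 5 days (red squares), with 95% intervals, and dotted lines at a 1.3-fold change. Nqo1 (2.87 and 2.64) and Aldh3a1 (2.84 and 2.39) lie farthest to the right, and Aldh1a7 is below 0 at 1 day only.

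Complete separation of smoke from sham mice was rare on the array. At 1 day 9 rows had every smoke mouse above every sham mouse, 0.0287% of all rows, and Nqo1, Aldh3a1, Adh7 and Cbr3 were 4 of them. At 5 days there were 8 such rows, 0.0255%, with Nqo1, Aldh3a1 and Cbr3 among them. Only 5 rows were separate at both times: these 3 transcripts and the smoke-inducible cytochromes Cyp1a1 and Cyp1b1. In the order of the 16 group means, Nqo1, Aldh3a1 and Cbr3 each had a single gap between neighbouring groups whose ranges did not overlap, the gap between the highest sham group and the lowest smoke group. For those 3 transcripts the lowest smoke group was βENaC females at 5 days, with means of 7.87, 8.18 and 6.93, and the highest was WT males at 1 day, with 9.21, 9.77 and 8.11. Without the 3 mice that spread most, the means of the βENaC females were 8.09, 8.43 and 7.03, still the lowest for Nqo1 and Aldh3a1, while for Cbr3 the WT females at 5 days were lower (6.98). Neighbouring smoke groups in that order were not distinct beyond their spread. For Adh7 the single gap lay above the second highest group, below the WT smoke males at 1 day (9.40 ± 0.25, SD, n = 5). These ranges all but touched: the lowest WT value was 9.1204 and the highest of the βENaC smoke males at 1 day 9.1164. For Aldh1a1, Aldh1a7, Cbr1 and Akr1b8 none of the 15 neighbouring pairs was separate.

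The response of 2 transcripts depended on duration. The smoke difference of Adh7 was smaller after 5 days than after 1 day, by -0.69 ± 0.16 (adjusted p = 0.0099, limma), with smoke medians of 8.87 and 8.31 and sham medians of 6.64 and 6.70. Without the 3 mice that spread most it was -0.58 (adjusted p = 0.014). That of Aldh1a7 was larger by 0.27 ± 0.06 (adjusted p = 0.0034), with smoke medians of 9.32 and 9.46 and sham medians of 9.45 and 9.43. Over all rows 1.3% passed this test. Cbr3 (-0.39 ± 0.13, adjusted p = 0.13), Aldh3a1 (-0.45 ± 0.16, adjusted p = 0.17) and Nqo1 (-0.23 ± 0.15, adjusted p = 0.56) had smaller differences at 5 days that did not pass. When the adjustment ran over the genes called for exposure alone, Aldh3a1 (adjusted p = 0.024) and Cbr3 (adjusted p = 0.015) passed as well, while Aldh1a7 was not among the genes tested. The 95% intervals were -0.04 to 0.22 for Aldh1a1, -0.03 to 0.20 for Cbr1 and -0.32 to 0.12 for Akr1b8.

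Within each genotype and sex, smoke was compared with sham again. Nqo1, Aldh3a1, Adh7 and Cbr3 were called higher in all 4 groups at both durations. At 1 day the rise of Nqo1 ran from 2.39 in βENaC females to 3.05 in WT males, that of Aldh3a1 from 2.37 to 3.20 in the same groups, that of Adh7 from 1.90 to 2.67 and that of Cbr3 from 1.42 to 2.29. At 5 days βENaC females again had the smallest rise of each, at 2.20, 2.02, 1.13 and 1.10. Without the 3 mice that spread most these were 2.41, 2.27, 1.33 and 1.20, and the smallest rise of Aldh3a1 was that of WT females (2.25). With all mice and leaving the smallest group aside, the remaining groups rose by at least 2.60 for Nqo1, 2.27 for Aldh3a1, 1.43 for Adh7 and 1.51 for Cbr3. Akr1b8 was called in WT males (0.75) and βENaC males (0.83) at 1 day, and in WT females (0.64) and βENaC males (0.87) at 5 days. Cbr1 was called in both groups of males at 5 days (0.41 in WT, 0.40 in βENaC). Aldh1a1 and Aldh1a7 were called in no group. In all, 18 of 32 comparisons of a transcript in a group were called at 1 day, and 20 of 32 at 5 days.

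By comparison, the share of all rows called higher in females was 0.137% for WT and 0.364% for βENaC at 1 day, and 0.278% and 0.0702% at 5 days. In males it was 0.376% for WT and 0.478% for βENaC at 1 day, and 0.0893% and 0.341% at 5 days.

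**Figure D3:**
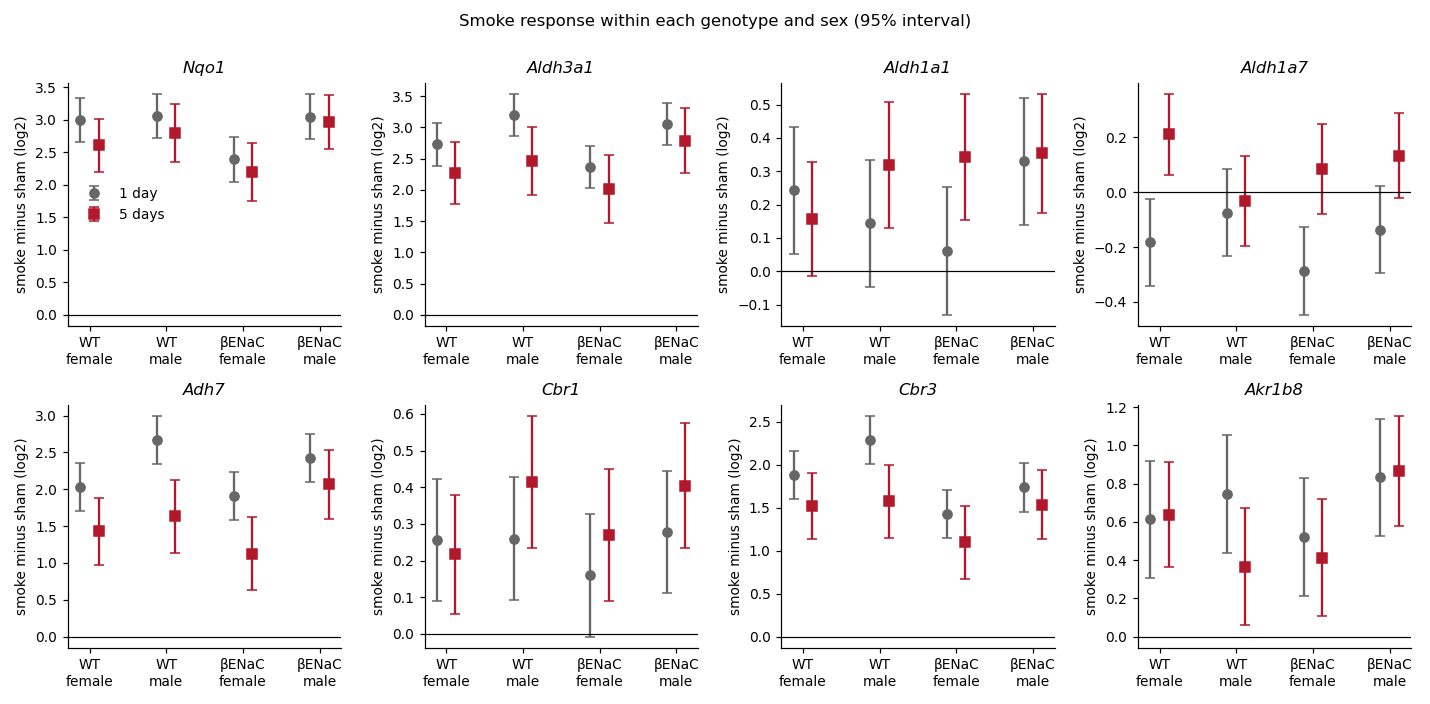
Smoke minus sham difference in log2 intensity (vertical axis, scaled per transcript) in each genotype and sex (horizontal axis), at 1 day (grey circles) and 5 days (red squares), with 95% intervals. For Nqo1, Aldh3a1, Adh7 and Cbr3 the smallest differences with all mice are those of βENaC females, and no interval reaches 0.

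Whether the smoke response differed with genotype or sex was tested by interaction terms, and no transcript passed. Of all rows, 0.00638% passed for genotype and 0.00319% for sex at 1 day, and 0% for either at 5 days. At an unadjusted p under 0.05 the shares of all rows were 6.93%, 6.38%, 3.89% and 3.53%. Among the enzymes, Cbr3 alone was under it for genotype at 1 day, and none at 5 days. For sex, Nqo1, Aldh3a1, Adh7 and Cbr3 were under it at 1 day, and Nqo1 and Adh7 at 5 days. For genotype, the term farthest from 0 was that of Cbr3 at 1 day, whose difference in βENaC mice was -0.50 ± 0.14 relative to WT (unadjusted p = 0.00083, adjusted p = 0.64, limma). For sex, the rise of Adh7 and of Aldh3a1 was larger in males at 1 day, by 0.58 ± 0.16 and 0.58 ± 0.17 (adjusted p = 0.45 and 0.48). At 5 days the corresponding differences were 0.57 and 0.48, with 95% intervals of 0.09 to 1.05 and -0.05 to 1.01.

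Genotype was tied to lower levels of the chromosome 19 aldehyde dehydrogenases and higher Akr1b8. Differences are βENaC minus WT with exposure and sex in the model, and most were near the 1.3-fold threshold, so the adjusted p is read alone here. By it 6 of 8 transcripts passed at 1 day and 4 at 5 days, against 5.87% and 10.2% of all rows. Aldh1a7 was lower in βENaC mice by -0.31 ± 0.04 (adjusted p = 8.0e-07) and -0.40 ± 0.04 (adjusted p = 1.4e-09), and Aldh1a1 by -0.23 ± 0.05 (adjusted p = 0.0013) and -0.28 ± 0.04 (adjusted p = 2.8e-05). Nqo1 was lower by -0.33 ± 0.09 (adjusted p = 0.019) and -0.35 ± 0.11 (adjusted p = 0.035). At 5 days this did not pass without any 1 of 9 mice (adjusted p up to 0.059), without the 3 mice that spread most (-0.29, adjusted p = 0.056), with array weights (adjusted p = 0.056) or with the replicate number as a block (adjusted p = 0.058), which leaves 3 transcripts. At 1 day Adh7 (-0.40 ± 0.09, adjusted p = 0.0034) and Aldh3a1 (-0.38 ± 0.09, adjusted p = 0.0087) were lower too, and at 5 days neither passed. Akr1b8 alone was higher, with medians of 6.82 in βENaC and 6.38 in WT sham mice at 1 day, 7.37 and 7.02 in smoke mice at 1 day, 6.69 and 6.49 in sham mice at 5 days and 7.45 and 6.88 in smoke mice at 5 days. The ranges of the genotypes overlapped in each of these 4 settings. The differences were 0.37 ± 0.08 (adjusted p = 0.0011) and 0.33 ± 0.08 (adjusted p = 0.0035). Its relative Akr1b10 was higher by 0.17 ± 0.04 (adjusted p = 0.013) and 0.17 ± 0.06 (adjusted p = 0.052) by limma. Akr1b7 differed by -0.31 ± 0.07 (adjusted p = 0.0023) and -0.01 ± 0.12 (adjusted p = 0.97). Whether these rows share probe signal was not tested. Past 1.3-fold were Adh7 at 1 day and Aldh1a7 at 5 days. Adh7 fell under that fold without replicate 1 of the βENaC smoke females (-0.38), of the WT smoke males (-0.37) or of the βENaC sham males (-0.36), the last being among the 3 mice that spread most, whose joint removal gave -0.36 as well.

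In sham mice alone, the difference of Aldh1a7 was present without smoke. At 5 days its values were 9.39 to 9.85 (median 9.57) in 11 WT and 9.05 to 9.30 (median 9.22) in 9 βENaC sham mice, with no overlap. Every βENaC mouse lay below every WT mouse in 0.281% of all rows there, and in 0.0797% among the smoke mice at 5 days, where Aldh1a7 was at 9.4617 to 9.86 in WT and 9.07 to 9.4603 in βENaC mice, an all but touching pair of ranges. At 1 day the sham ranges, 9.41 to 9.77 and 9.15 to 9.48, overlapped. The sham difference was -0.27 ± 0.06 (adjusted p = 0.0059) at 1 day and -0.41 ± 0.05 (adjusted p = 3.8e-06) at 5 days by limma.

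Aldh1a1 in sham mice at 5 days was 11.53 to 11.79 in WT and 11.13 to 11.58 in βENaC mice, a difference of -0.33 ± 0.06 (adjusted p = 0.00086, limma). Of the 8 transcripts, 1 passed in sham mice at 1 day and 2 at 5 days, against 1.41% and 5.12% of all rows. Club cell markers moved the same way. Their summed intensity ran from 22595 to 25534 in WT and 18268 to 22391 in βENaC mice at 5 days, and 4 of 5 were lower by the adjusted p alone (2 of them past 1.3-fold) and none higher. At 1 day the sums were 21292 to 24914 and 19292 to 22878, and again 4 of 5 were lower by the adjusted p alone, none past 1.3-fold. Other lists moved as well by the adjusted p alone. Alveolar type 1 markers were lower in 1 of 4 at 1 day and 3 of 4 at 5 days. Endothelial markers were lower in 2 of 5 at each time, with none higher in either list. Of 6 alveolar type 2 markers, 2 were higher and none lower at each time. Of 6 alveolar macrophage markers, 2 were higher and 2 lower at each time, all past 1.3-fold. Fibroblast markers were higher in 3 of 6 at 1 day and lower in 1 at 5 days. Among 6 ciliated cell markers, 1 was higher at 1 day and 1 lower at 5 days. Of 3 red cell precursor markers, 1 was lower at 5 days. The part of any of these cells in the Aldh1a1 and Aldh1a7 differences was not tested.

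Among smoke mice at 1 day, the βENaC lungs held less of all 4 strongly induced transcripts, a comparison added after the data were seen. The differences were -0.49 ± 0.12 for Nqo1 (adjusted p = 0.018), -0.51 ± 0.12 for Aldh3a1 (adjusted p = 0.013), -0.50 ± 0.11 for Adh7 (adjusted p = 0.012) and -0.42 ± 0.10 for Cbr3 (adjusted p = 0.013) by limma. Aldh1a7 passed the adjusted p as well (-0.35 ± 0.06), so that 5 of 8 did, against 2.56% of all rows. At 5 days Aldh1a7 (-0.39 ± 0.06, adjusted p = 3.1e-05) and Akr1b8 (0.41 ± 0.10, adjusted p = 0.035) passed, 2 of 8 against 1.5% of all rows. Without replicate 1 of the βENaC smoke males at 1 day, the Nqo1 difference was -0.41 (adjusted p = 0.058) and that of Cbr3 -0.33, and without replicate 1 of the WT smoke males that of Cbr3 was -0.38, under the fold threshold. With 1 fit over all mice, the adjusted p of Aldh3a1 at 1 day was 0.057. Akr1b8 at 5 days no longer passed without any 1 of 10 mice, with adjusted p up to 0.099. In sham mice at 1 day the differences were -0.18 ± 0.12 for Nqo1, -0.25 ± 0.12 for Aldh3a1 and -0.31 ± 0.11 for Adh7. At 5 days they were -0.28 ± 0.15, -0.26 ± 0.18 and -0.28 ± 0.16, and none passed the adjusted p at either time. Cbr3 in sham mice differed by 0.09 ± 0.10 at 1 day and 0.11 ± 0.14 at 5 days. The interaction of smoke with genotype passed for none of the 4 transcripts.

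**Figure D4:**
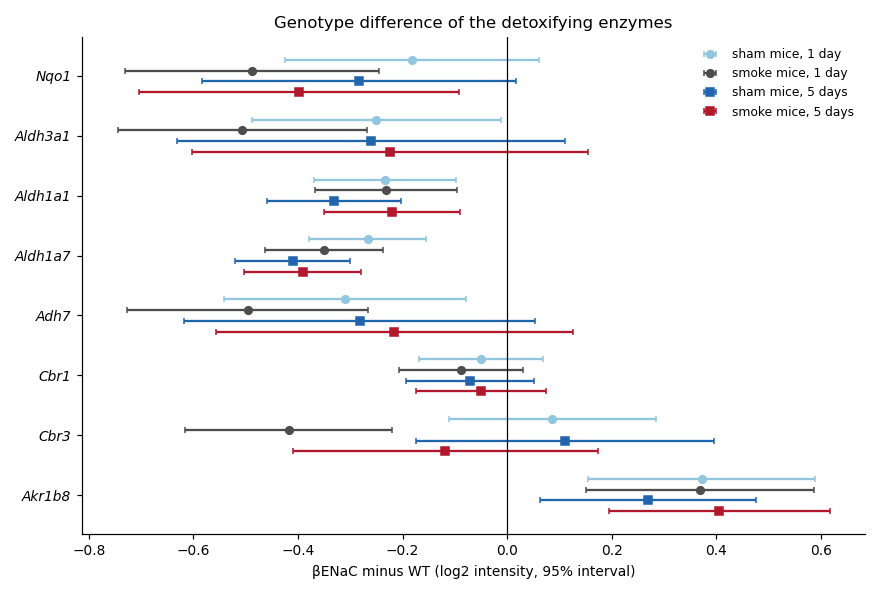
βENaC minus WT difference in log2 intensity (horizontal axis) for each transcript in sham and smoke mice at 1 day (circles) and 5 days (squares), with 95% intervals. Aldh1a1 and Aldh1a7 lie below 0 and Akr1b8 above 0 in all 4 comparisons, and the interval of Cbr3 excludes 0 in smoke mice at 1 day only.

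Fewer transcripts passed for sex, in a term taken over sham and smoke mice together. At 1 day Aldh3a1 was higher in males by 0.38 ± 0.09 (adjusted p = 0.0057), at the edge of the fold threshold and under it without any 1 of 17 mice (0.34 to 0.38), and Cbr3 by 0.35 ± 0.08 (adjusted p = 0.0034, limma), under it. Those were 2 of 8 transcripts, against 9.89% of all rows. Mean Aldh3a1 at 1 day was 6.34 in female and 6.43 in male sham mice, and 8.89 and 9.56 in smoke mice. For Cbr3 the means were 5.70 and 5.87 in sham mice, and 7.35 and 7.88 in smoke mice. The interaction of smoke with sex passed for neither. At 5 days none of the 8 passed, against 0.616% of all rows, although Nqo1 (0.40 ± 0.11, adjusted p = 0.090) and Aldh3a1 (0.42 ± 0.13, adjusted p = 0.15) had differences of like size. At an unadjusted p under 0.05, Nqo1, Aldh3a1, Aldh1a1 and Cbr3 passed at 5 days, 4 of 8 against 11.3% of all rows.

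Most other aldehyde, alcohol and carbonyl metabolising genes were not called. Of 45 measured, 2 (4.44%) were called higher with smoke at 1 day and 3 (6.67%) at 5 days, against 0.488% and 0.581% of all rows, and none lower. By the adjusted p alone 3 (6.67%) and 11 (24.4%) were higher, against 5.03% and 3.17% of all rows. The share at 1 day was thus near that of all rows. By the same rule 4 were lower at 1 day and 3 at 5 days. Over all rows 4.43% were lower at 1 day, and 1055 of 31350 at 5 days. The median difference was -0.01 and 0.05, beside 0.01 and 0.00 over all rows. Aox1, an aldehyde oxidase, rose by 0.58 ± 0.04 (adjusted p = 3.1e-13) and 0.69 ± 0.06 (adjusted p = 2.7e-11). The aldo-keto reductase Akr1c14 rose by 0.53 ± 0.08 (adjusted p = 1.2e-05) and 0.70 ± 0.10 (adjusted p = 3.4e-06). Aox3, another aldehyde oxidase, rose by 0.39 ± 0.05 at 5 days (adjusted p = 1.5e-07, limma). The other 42 genes differed by -0.37 to 0.29, and Aldh1a2, which makes retinoic acid, was the lowest at each time (-0.37 and -0.36).

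Among 9 genes of the NRF2 and aryl hydrocarbon receptor pathways, 2 (22.2%) were called higher at 1 day and 1 (11.1%) at 5 days. The shares of all rows were 0.488% and 0.581%. By the adjusted p alone 5 (55.6%) and 6 (66.7%) were higher, against 5.03% and 3.17% of all rows. Maff, a small partner protein of NRF2-type factors, rose by 0.52 ± 0.10 (adjusted p = 0.00040) and 0.49 ± 0.07 (adjusted p = 1.1e-05). Ahrr, the repressor of the aryl hydrocarbon receptor, rose by 0.47 ± 0.06 at 1 day (adjusted p = 4.5e-07) and differed by 0.15 ± 0.05 at 5 days. Its response passed the test of duration, with a difference of -0.31 ± 0.08 (adjusted p = 0.028). Nfe2l2 passed the adjusted p with 0.27 ± 0.03 and 0.23 ± 0.03, under 1.3-fold. Mafk (0.18 and 0.23) and Arnt (0.09 and 0.12), both binding partners, passed the adjusted p too, and Tiparp passed it at 5 days (0.15). Keap1 (0.13 and 0.12), Bach1 (0.06 and 0.04) and Ahr (-0.03 and -0.07) did not.

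**Figure D5:**
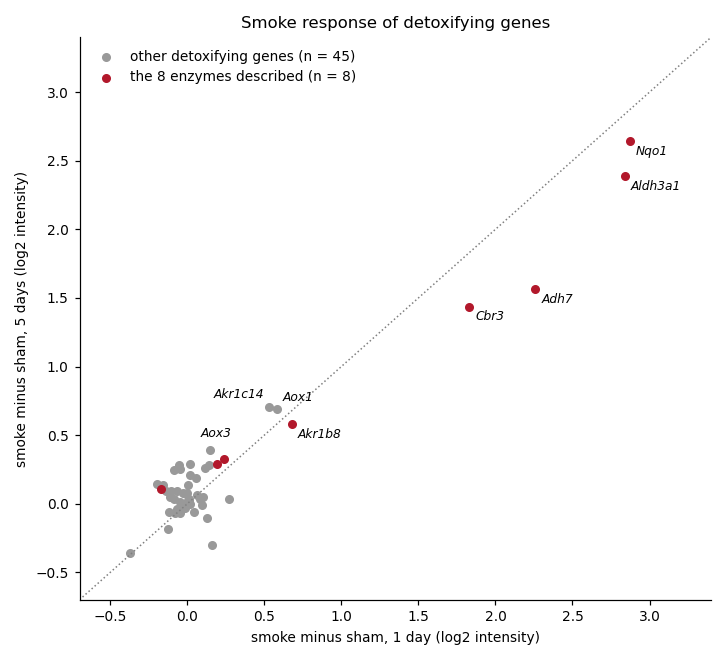
Smoke minus sham difference in log2 intensity at 1 day (horizontal axis) against 5 days (vertical axis) for the 8 transcripts (red) and 45 other aldehyde, alcohol and carbonyl metabolising genes (grey), with the line of equal change dotted and called genes named. Nqo1, Aldh3a1, Adh7 and Cbr3 lie apart from all others and below the line.

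Markers of other cell types were set beside the smoke response. Of 5 club and 6 ciliated cell markers, none was called at either time, although 2 of each list were lower by the adjusted p alone at 1 day. The summed club intensity ran from 19292 to 24914 in sham and 19628 to 23427 in smoke mice at 1 day, and from 19362 to 25534 and 18268 to 23971 at 5 days. Red cell precursor markers rose at 5 days, 3 of 3 called, with sums of 289 to 1684 in sham and 1019 to 2426 in smoke mice. Of 6 markers of squamous and basal tracheal epithelium, only the keratin gene Krt15 was called, higher at both times (0.49 and 0.85). Their sums were 55 to 73 in sham and 57 to 85 in smoke mice at 1 day, and 60 to 76 and 57 to 1456 at 5 days, where the 1456 belonged to replicate 5 of the βENaC smoke females and the next highest sum was 118. At 1 day the only other call was 1 of 6 neutrophil markers, lower (Retnlg, -0.66). At 5 days 1 of 6 alveolar macrophage markers (Fabp1, -1.13) and 2 of 6 fibroblast markers (Col1a1, -0.39, and Col3a1, -0.58) were called lower, and 1 of 4 cardiac muscle markers (Tnnt2, 0.40) higher. None was called among alveolar type 1 and type 2, cartilage and endothelial markers. By the adjusted p alone, 1 of 4 type 1 and 1 of 6 type 2 markers were lower at 1 day. At that time 1 of 5 cartilage and 1 of 5 endothelial markers were higher. At 5 days 2 of 6 type 2 and 3 of 5 endothelial markers were lower. The part of these cells in the enzyme differences was not tested, and the count of 5 enzymes called at each time held without any single mouse.

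Mouse-to-mouse variation within groups was shared by several of the enzymes. Each value was taken as a deviation from its own group mean over the 79 mice, whose arrays were run on one plate, and 28 pairs were tested by permuting mice within groups 100000 times (two-sided). Of these, 16 pairs by Pearson's r and 15 by Spearman's rho had an adjusted p under 0.05, 14 of them by both and all with positive values. The share of pairs of other genes that would pass was not computed, so the count is not a trait particular to these enzymes. The highest were Aldh3a1 with Adh7 (Pearson r = 0.758, Spearman rho = 0.669, permutation p = 1e-05 for each, the smallest these permutations can give, adjusted p = 3.5e-05 and 4e-05) and Nqo1 with Aldh3a1 (r = 0.755, rho = 0.672, with the same p). Without the 2 mice farthest from the median of the first-named transcript, r was 0.714 and 0.699. Cbr1 with Cbr3 gave r = 0.614 and rho = 0.611 (permutation p = 1e-05 for each), and r = 0.568 without 2 mice. Aldh1a1 with Aldh1a7 gave r = 0.100 and rho = 0.0974 (permutation p = 0.44 and 0.43, adjusted p = 0.456 and 0.476), and 0.132 without 2 mice. Akr1b8 passed with Cbr3 only (r = 0.304, rho = 0.301, permutation p = 0.022 and 0.018, adjusted p = 0.039 and 0.037, and r = 0.242 without 2 mice).

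The named genes most like each transcript by the same deviations, out of 21759, are given as a description over 79 mice. Nqo1 was most like Gclm (r = 0.762), which encodes a subunit of the enzyme that limits glutathione synthesis, and Aldh3a1 was most like Gabrp (0.784). Aldh1a1 was most like Aldh2 (0.806), Cav2 (0.792) and the club cell cytochrome Cyp2f2 (0.792). Aldh1a7 was most like Cd24a (0.566), Ttc29 (0.556) and Cfap221 (0.516), of which the last is a gene of motile cilia. Adh7 was most like Aldh3a1 (0.758), Cbr1 like Nqo1 (0.663) and Cbr3 like Gclm (0.683). Akr1b8 was most like Hmox1 (0.588), which encodes heme oxygenase 1, and Slc7a11 (0.576), the cystine transporter.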

How the data were processed

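RNA from the right lung of 79 mice was measured on Affymetrix mouse gene 2.1 arrays. The deposited values are log2 intensities made by the authors, who checked arrays in Expression Console 1.4 and used Partek 6.6 for RMA with a correction for probe sequence, quantile normalization and summary by median polish. The authors removed 1 array as mislabelled. Rows were named by RefSeq accession (21057 rows) or by the study's gene tables (780 rows), and 9513 rows stayed unnamed. Groups came from sample titles. No column of the table was left unused.

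All rows were fitted with limma 3.58.1 (R 4.3.3), per duration with exposure, genotype and sex, or with group means for interactions and comparisons within groups, and p-values were adjusted over all 31350 rows (Benjamini-Hochberg). Calls needed adjusted p under 0.05 and 1.3-fold, interactions the adjusted p alone. The fits were tested on simulated data. Arrays give no read depth, so precision depends on how many were run. Named genes are the enzymes, other detoxifying genes called for exposure, all pathway regulators, and up to 3 of the genes most like each enzyme. Some relatives of the enzymes, some markers and some fully separated rows are named beside them. The enzymes and lists were chosen with earlier results of these data known.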

Additional observations from a re-analysis of the deposited data

Results flagged for a closer look

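Of 128 sets of group values checked (8 transcripts in 16 groups), 8 had a mouse far from the others of its group by Dixon's criterion, and chance alone flags about 1 in 20 groups. Aldh3a1 accounted for 4 of them. Replicate 1 of the βENaC smoke males at 1 day had the lowest Aldh3a1 (8.62, others 9.39 to 9.67) and Nqo1 (8.23, others 8.90 to 9.15) of its group. Aldh3a1 was low in replicate 3 of the WT sham males at 1 day (6.30, others 6.57 to 6.67) and in replicate 1 of the βENaC sham females at 5 days (6.02, others 6.19 to 6.22). It was high in replicate 4 of the βENaC sham females at 1 day (6.598, others 6.08 to 6.18).

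Adh7 was low in replicate 3 of the βENaC sham males at 5 days (5.83, others 6.50 to 6.72), and Akr1b8 in replicate 5 of the βENaC sham females at 1 day (6.54, others 6.81 to 6.90). Aldh1a1 was low in replicate 3 of the βENaC smoke females at 5 days (11.17, others 11.69 to 11.86), which was also among the 3 mice whose values spread most.

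The smoke response differed between 1 and 5 days, by a test of that difference, for Adh7 (-0.69) and Aldh1a7 (0.27).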

How the results depend on the processing

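The 5 transcripts called for exposure at each duration and the 2 called for exposure by duration kept those counts when any 1 of the 79 mice was left out. Over 14 other settings, 1439 of 1485 values of the transcripts stayed on the same side of the threshold, 21 dropped below it, 25 passed it and 0 reversed. Without a fold threshold, 8 transcripts passed for exposure at 1 day, 6 and 4 for genotype at 1 and 5 days, 1 and 2 for genotype in sham mice, 2 for sex at 1 day, and 2964 and 2048 of all rows for exposure, against 339 and 363. With a 1.5-fold threshold, 98 and 119 rows passed for exposure, and 0 transcripts for genotype at either time, for genotype in sham mice at 5 days, in smoke mice at either time, or for sex at 1 day. These changes follow from the threshold itself. For genotype at 1 day, centring arrays on their median, quantile and cyclic loess normalization gave 2 transcripts, and array weights or leaving out the 3 mice that spread most gave 0. For genotype in smoke mice at 5 days, an ordinary linear model, quantile and cyclic loess normalization and leaving out those 3 mice each gave 1. For sex, the 3 normalizations gave 0 at 1 day, and 1 fit over all mice gave 1 at 5 days. The cause was not tested. Leaving out 1 mouse gave 0 to 3 transcripts for genotype at 1 day, 1 to 2 at 5 days, 0 to 1 in sham mice at 1 day, 2 to 5 and 0 to 2 in smoke mice at 1 and 5 days, and 0 to 2 for sex at 1 day. The alternative of a symbol's next highest row was not run, since each gene had 1 row. Centring the deviations raised the correlated pairs from 16 to 18. Leaving out the 3 mice and comparing genotypes among smoke mice were chosen after seeing the data.

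Replicate numbers only name the mice: deviations of same-numbered mice correlated by 0.0121 on average over 266 pairs, and those of other pairs by -0.00273. With the replicate number as a block, 5 transcripts were called for exposure at each duration, 344 and 370 of all rows, and 18 of 32 comparisons within groups at each time, against 18 and 20 without it.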
